A study of Homo sapiens with 18 samples.

Results

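SP100 knockout keratinocytes were compared after a long and a short exposure to type I interferon. The comparison set 3 libraries of the knockout (KO) line kept in human interferon alpha 2a for 48 h against 3 libraries of the same line kept in it for 12 h, 6 of the 18 libraries of the series. Interferon was at 25 ng/mL in both groups. The cells were NIKS, human keratinocytes of an established immortalized line, grown on irradiated J2/3T3 mouse fibroblasts. Untreated KO cells (0 h) and SP100 wild-type (WT) NIKS cells at 0, 12 and 48 h, also with 3 biological replicates per group, served as reference. The column names give 1 line per genotype, so any other difference between the KO line and the WT line cannot be told apart from the genotype. With no untreated library of 12 or 48 h analysed here, hours in interferon and hours in culture cannot be told apart either.

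Interferon alpha binds the receptor pair IFNAR1 and IFNAR2, whose kinases JAK1 and TYK2 phosphorylate STAT2. STAT2 joins IRF9 in a transcription factor that binds the interferon-stimulated response element in the promoters of many genes. The products restrict virus entry, replication and translation, present antigen and recruit immune cells, while inhibitors such as USP18 damp the signal as exposure goes on. SP100 is itself induced by interferon and is a resident of PML nuclear bodies, protein assemblies of the nucleus that hold back incoming viral DNA.

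Expression was given as RPKM, the reads on a gene divided by its length and by the size of the library, which allows levels to be compared between genes. Changes are 48 h minus 12 h in log2(RPKM + 1), so that a value below 0 is lower at 48 h, and the added 1 understates changes of weakly expressed genes. A gene is called when its limma p-value, adjusted over all 13280 genes tested, was under 0.05. A called gene with a change of at least 1 on the log2 scale is counted as changed at least 2-fold. Means carry the SD over 3 libraries. The total reads per library are unknown, and the relative depth recovered from low values lay between 0.843 and 1.273 in all 18 libraries, with 0.93 to 1.113 at 12 h and 0.889 to 1.052 at 48 h in KO. Libraries of a group correlated across genes with a Pearson r of 0.987 to 0.989 at 12 and 48 h in KO.

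SP100 RNA (ENSG00000067066) was read first, since it bears on the labels. The KO libraries held 16.0, 14.2 and 15.2 RPKM untreated, 93.2, 86.5 and 87.5 at 12 h and 59.5, 57.4 and 62.4 at 48 h, and the WT libraries 30.1, 31.9 and 27.9, 156, 172 and 151, and 127, 124 and 131. Each KO library lay below each WT library of its time, and the transcript was present in both genotypes. Which exons were altered is not given in the sources used here, so RNA from the locus is no measure of the protein. Within KO, SP100 RNA fell from 12 to 48 h (log2 change -0.57, SE 0.059, adjusted p = 2.15e-06).

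The 48 h KO libraries stood between the untreated and the 12 h libraries along the main axis of variation. A principal component analysis of the 9 KO libraries put 50.3% of the variance on its leading axis, where untreated libraries lay at -34.4 to -31.2, 12 h libraries at 29.7 to 30.3 and 48 h libraries at 2.68 to 3.61. The next axis, with 16.9%, set the 48 h libraries (-22.3 to -19.7) apart from all others (6.89 to 14.1). Of the 13280 genes tested, 3678 (27.7%) were higher and 1860 (14%) were lower at 48 h than at 12 h. At 2-fold, 108 (0.813%) were higher and 83 (0.625%) were lower. The excess of higher calls rested on the scaling: after median-of-ratios scaling, which brings the median change of all genes from 0.079 to 0.00, 2532 genes (19.1%) were higher and 2803 (21.1%) lower, so the share of higher among all calls went from 66.4% to 47.5%. No gene was called in opposite directions by both scalings. The comparison of 12 h with untreated KO cells moved too: its median went from -0.095 to -0.001, and the share of higher calls from 32.7% to 50.9%. All counts against untreated cells below are unscaled. Small changes therefore depend on the scaling. Scaled counts are given below for many lists but not for all, and most single changes are given unscaled. The changes named at 2-fold or more kept their call under either. Each list below is to be read beside the shares of all genes, 27.7% higher and 14% lower, or 19.1% and 21.1% after scaling.

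**Figure D1:**
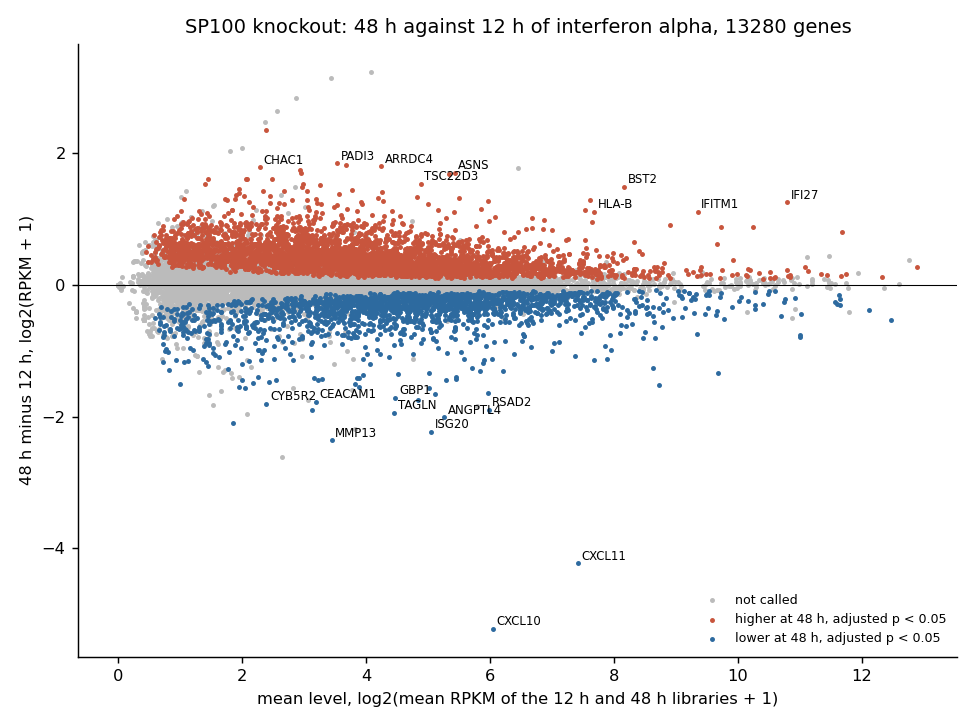
Change from 12 to 48 h in interferon alpha in KO cells (y axis, log2(RPKM + 1)) against the mean level (x axis, log2 scale) for all 13280 genes tested, each a point, coloured by the limma call. CXCL10 and CXCL11 lie far below every other called gene, and BST2, IFITM1 and IFI27 are abundant genes that rose.

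Most genes of the interferon response declined between 12 and 48 h, and a minority rose over that time. Of 135 tested genes on 12 interferon lists, 89 (65.9%) were lower and 21 (15.6%) higher at 48 h, beside 14% and 27.7% of all genes, and their median change was -0.44 beside 0.08. At 2-fold, 20 of the 135 (14.8%) were lower, beside 0.625% of all genes. After median-of-ratios scaling 94 were lower and 15 higher. Those 15 included the restriction factors BST2, IFI27, IFI6, IFI44L, LY6E, IFITM1, IFITM2 and IFITM3, the antigen presentation genes HLA-B, HLA-C and B2M, the receptor chain IFNAR2, the phosphatase PTPN6 and the ISG15 pathway ligase ARIH1.

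Promoter windows are shown for 2 of the genes that fell most and 3 that rose, because genes with the same response element moved in opposite directions. Only genes with a match are shown. CXCL11 and RSAD2, also among the largest falls, and HLA-B, which rose, have windows without this element. Each window runs from 250 bases before to 10 bases after the RefSeq start in GRCh38.p14, 5′ to 3′ on the gene's strand, with matches to GAAA, any 2 bases and GAAA, the core of the interferon-stimulated response element, on either strand in capitals. CXCL10 (chr4:76023488-76023747, minus strand) and ISG20 (chr15:88638766-88639025, plus strand) fell, while BST2 (chr19:17405621-17405880, minus strand), IFI27 (chr14:94110486-94110745, plus strand) and IFITM1 (chr11:313790-314049, plus strand) rose.
CXCL10: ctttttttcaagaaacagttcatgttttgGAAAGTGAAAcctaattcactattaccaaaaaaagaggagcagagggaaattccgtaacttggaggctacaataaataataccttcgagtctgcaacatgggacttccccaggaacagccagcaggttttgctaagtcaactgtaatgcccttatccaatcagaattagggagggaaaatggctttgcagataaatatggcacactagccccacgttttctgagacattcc
ISG20: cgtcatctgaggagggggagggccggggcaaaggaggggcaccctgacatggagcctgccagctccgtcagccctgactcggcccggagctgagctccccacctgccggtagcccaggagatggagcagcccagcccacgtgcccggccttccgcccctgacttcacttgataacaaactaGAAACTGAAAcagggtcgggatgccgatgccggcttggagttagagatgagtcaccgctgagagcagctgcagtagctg
BST2: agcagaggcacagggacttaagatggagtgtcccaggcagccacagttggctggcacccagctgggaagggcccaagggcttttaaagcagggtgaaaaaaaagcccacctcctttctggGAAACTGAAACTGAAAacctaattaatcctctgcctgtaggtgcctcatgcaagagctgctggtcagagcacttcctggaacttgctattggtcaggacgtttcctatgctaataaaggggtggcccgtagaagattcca
IFI27: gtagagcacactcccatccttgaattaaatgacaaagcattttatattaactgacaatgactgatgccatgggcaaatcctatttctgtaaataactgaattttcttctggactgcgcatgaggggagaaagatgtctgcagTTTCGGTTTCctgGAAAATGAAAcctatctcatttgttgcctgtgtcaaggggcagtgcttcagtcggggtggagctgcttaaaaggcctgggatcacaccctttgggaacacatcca
IFITM1: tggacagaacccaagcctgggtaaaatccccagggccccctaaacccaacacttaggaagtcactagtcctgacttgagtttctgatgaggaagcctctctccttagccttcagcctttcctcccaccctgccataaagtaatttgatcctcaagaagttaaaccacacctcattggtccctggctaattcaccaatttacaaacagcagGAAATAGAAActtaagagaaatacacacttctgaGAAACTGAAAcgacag
The single matches begin 221 bases upstream of the start in CXCL10 and 69 in ISG20. BST2 has 2 matches that share bases and begin 130 and 124 bases upstream, IFI27 has them at 108 and 95, and IFITM1 at 40 and 6.

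The response element core was about as frequent among interferon genes that rose as among those that fell. Within RefSeq windows of 250 bases before to 50 after the start, a match stood in 9 of 15 genes that rose (60.0%) and 36 of 68 that fell (52.9%), counting only genes with a window in the table. It stood in 3 of 16 that were not called (18.8%), in 2.8% of all genes tested and in 3.6% of the 27305 windows of the table. At least 2 matches stood in 7 of the 15 that rose (46.7%), namely B2M, BST2, IFI27, IFI44L, IFI6, IFITM1 and IFITM3, in 13 of the 68 that fell (19.1%) and in 0.35% of all genes tested. The gamma-activated site core TTCNNNGAA, which can share bases with the other motif, stood in 3 of 15 that rose, 10 of 68 that fell (14.7%) and 6.2% of all genes tested. These are counts of letters in short windows and no measure of binding.

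The secreted chemokines CXCL10 and CXCL11 fell the most. CXCL10 (ENSG00000169245), a chemokine that draws CXCR3-bearing T cells, was at 0, 0.08 and 0.05 RPKM in untreated KO libraries, 136, 126 and 119.9 at 12 h and 2.32, 2.89 and 2.12 at 48 h. It was near silent without interferon, high in all 12 h libraries and low again at 48 h, with no overlap between times. The mean fell 52.0-fold (log2 change -5.22, SE 0.115, adjusted p = 6.56e-14). CXCL11 (ENSG00000169248), a ligand of the same receptor, went from 0.07, 0.12 and 0.11 RPKM untreated to 339.8, 315 and 312 at 12 h and 15.1, 16.9 and 16.9 at 48 h. It fell 19.8-fold (log2 change -4.23, SE 0.111, adjusted p = 5.3e-13), and still stood far above the untreated libraries. The death ligand TNFSF10 (TRAIL) fell from 57.0, 54.8 and 56.7 RPKM to 19.9, 19.5 and 20.6 (log2 change -1.45, SE 0.0844, adjusted p = 4.09e-09). These were 3 of the 4 chemokine and cytokine genes tested on a list of 18 (75.0% lower, beside 14% of all genes). The remaining gene tested, the chemokine CCL20, was not called (log2 change 0.012) and was added after its values were seen. CXCL9, below the filter, was at 0.75, 1.11 and 0.91 RPKM at 12 h and 0.31, 0.3 and 0.2 at 48 h, and was not tested.

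**Figure D2:**
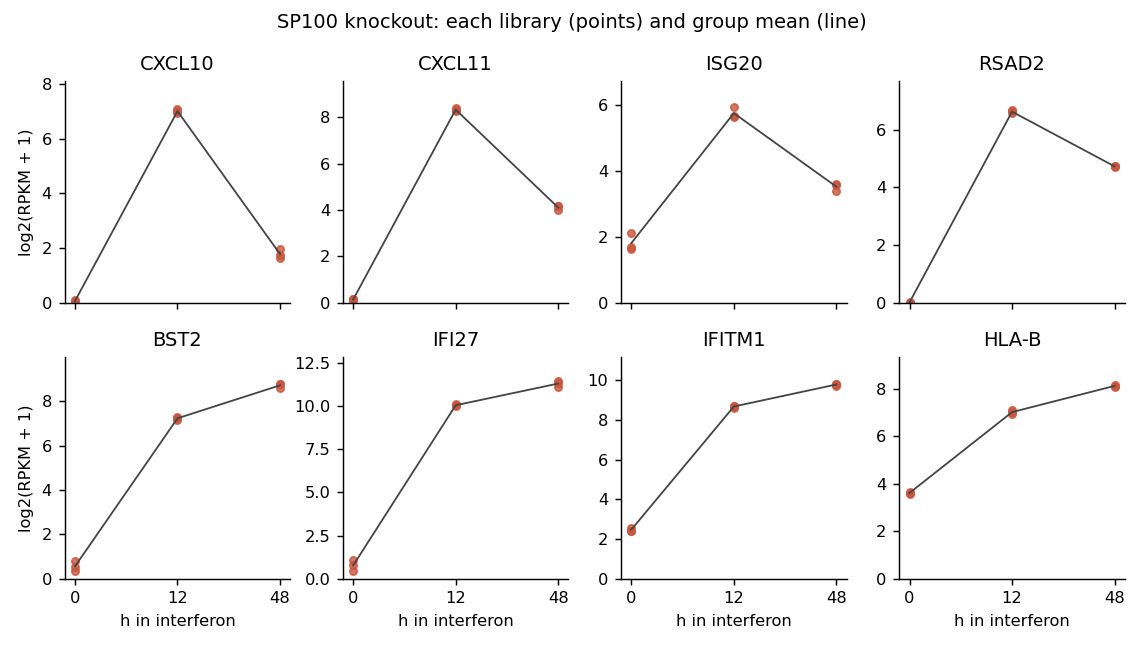
Level of 8 interferon genes (y axes, log2(RPKM + 1)) in each KO library at 0, 12 and 48 h in interferon (x axis, evenly spaced), points for libraries and lines through group means. The upper 4 genes peaked at 12 h, and the lower 4 were highest at 48 h with no overlap between times.

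Effectors that act on virus RNA and translation mostly fell. Of 39 antiviral effectors tested, 27 (69.2%) were lower and 11 (28.2%) higher at 48 h (8 higher after scaling), with a median of -0.61. Of all genes 14% were lower, and 27.7% were higher, a share close to that of the effectors. At 12 h 38 of the 39 were called above untreated cells and at 48 h 38, beside 16% and 5.9% of all genes. These comparisons with untreated cells share libraries with the one described. ISG20 (ENSG00000172183), a ribonuclease, was at 48.8, 50.1 and 61.1 RPKM at 12 h and 10.9, 11.2 and 9.52 at 48 h. The highest 48 h library lay below the lowest 12 h library by several fold (log2 change -2.23, SE 0.14, adjusted p = 1.04e-08), and untreated libraries were lower again (2.11, 2.22 and 3.31). RSAD2 (ENSG00000134321; viperin, which makes a chain-terminating nucleotide) was at 0, 0 and 0.02 RPKM untreated, 98.8, 94.6 and 101 at 12 h and 25.4, 25.5 and 25.9 at 48 h, a 3.84-fold decline (log2 change -1.90, SE 0.0945, adjusted p = 7.2e-10). IFIT1 and IFIT2 bind viral RNA. IFIT1 went from 628 ± 6.53 to 218 ± 4.5 RPKM (log2 change -1.52, SE 0.0794, adjusted p = 1.31e-09) and IFIT2 from 51.4 ± 2.06 to 15.7 ± 0.975 (log2 change -1.65, SE 0.0883, adjusted p = 1.67e-09); the IFIT genes are similar in sequence, and how shared reads were split is not given. The declines left high levels: MX1, a GTPase against influenza and other viruses chosen here after its values were seen, was still at 482 ± 4.22 RPKM at 48 h, against 0.223 ± 0.0551 untreated and 808 ± 3.97 at 12 h (log2 change -0.74, SE 0.045, adjusted p = 6.29e-09).

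A smaller set of effectors rose further, among them the most abundant. IFI27 (ENSG00000165949), a mitochondrial protein and the highest of the 39 effectors at 12 h, was at 0.35, 1.15 and 0.71 RPKM untreated, 1002, 1056 and 1078 at 12 h and 2751, 2551 and 2214 at 48 h. All 48 h libraries lay above all 12 h libraries (log2 change 1.26, SE 0.183, adjusted p = 5.66e-05). BST2 (ENSG00000130303), tetherin, which holds budding virions at the cell surface, went from 140.5, 152 and 156 RPKM to 438, 432 and 392, a 2.81-fold rise without overlap (log2 change 1.49, SE 0.107, adjusted p = 4.33e-08). IFITM1 and IFITM3 block fusion of virus with cell membranes. IFITM1 rose from 393, 423 and 416 RPKM to 910.1, 906 and 851 (log2 change 1.11, SE 0.0872, adjusted p = 1.06e-07), and IFITM3 from 850.05 ± 47.1 to 1571 ± 118 (log2 change 0.88, SE 0.0516, adjusted p = 4.09e-09). IFI6 rose from 596 ± 1.65 to 1095 ± 75.7 RPKM (log2 change 0.87, SE 0.0722, adjusted p = 1.98e-07). All but IFI27 in this paragraph were chosen after their values were seen, and the IFITM genes are near-identical copies whose reads could be split between them.

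**Figure D3:**
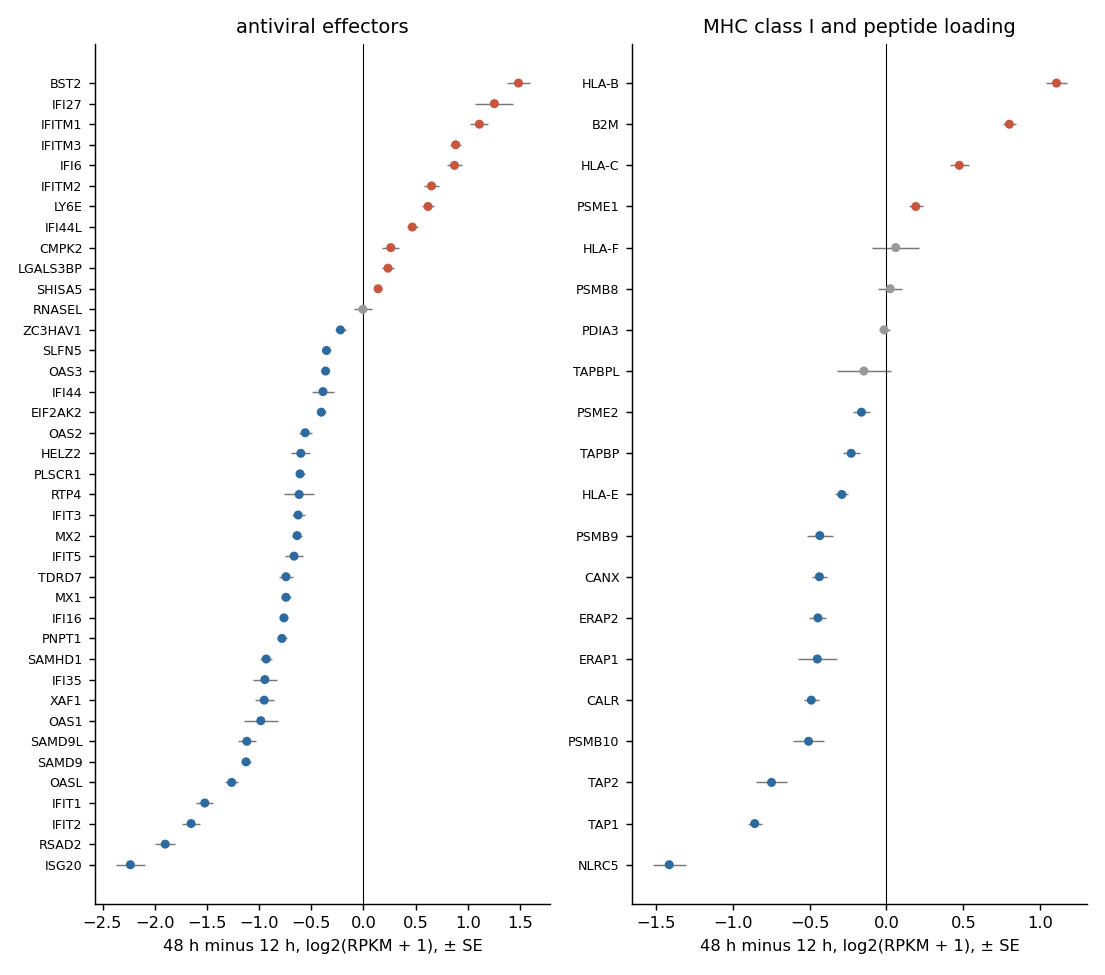
Change from 12 to 48 h in KO cells for the 39 antiviral effectors (left) and for genes of antigen presentation (right), as points with SE bars on the log2(RPKM + 1) scale, red for called higher, blue for called lower and grey for not called. BST2 at 1.49 and ISG20 at -2.23 mark the ends of the left panel, HLA-B at 1.11 and NLRC5 at -1.41 those of the right.

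Within antigen presentation, HLA-B and B2M rose while NLRC5 and TAP1 fell. Of 21 genes tested, 5 (23.8%) were higher and 12 (57.1%) lower at 48 h (4 and 13 after scaling), beside 27.7% and 14% of all genes. All 21 were called above untreated cells at 12 h, beside 16% of all genes. HLA-B (ENSG00000234745), a class I heavy chain, was at 11.4, 11.6 and 10.8 RPKM untreated, 121, 137 and 129.6 at 12 h and 279.9, 273 and 284 at 48 h. It climbed at each step with no overlap between times (log2 change 1.11, SE 0.0667, adjusted p = 6.03e-09). B2M, the light chain shared by all class I molecules and the most abundant gene of the list, rose from 2388 ± 96.3 to 4157 ± 142 RPKM (log2 change 0.80, SE 0.0437, adjusted p = 1.98e-09). NLRC5, the transactivator of class I genes, moved the other way, from 20.5, 23.2 and 17.7 RPKM to 6.99, 8.29 and 5.91 (log2 change -1.41, SE 0.107, adjusted p = 7.04e-08). TAP1, a chain of the peptide transporter, fell from 116 ± 3.88 to 63.8 ± 2.26 (log2 change -0.86, SE 0.0452, adjusted p = 1.41e-09). The HLA genes are polymorphic and alike, and how the authors assigned their reads is not given.

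The sensors of viral nucleic acid that were called all fell. Of 12 tested, 9 were lower and none higher at 48 h (11 and none after scaling), beside 14% and 27.7% of all genes. At 12 h 10 had been called above untreated cells, beside 16% of all genes. RIGI, a sensor of viral RNA ends, was at 3.07, 3.23 and 2.75 RPKM untreated, 177, 165 and 169 at 12 h and 85.4, 81.4 and 86.1 at 48 h, a 2.02-fold decline without overlap (log2 change -1.004, SE 0.0551, adjusted p = 1.98e-09). IFIH1 (MDA5), which reads long double-stranded RNA, went from 65.1 ± 2.56 to 35.2 ± 0.884 RPKM (log2 change -0.87, SE 0.0596, adjusted p = 2.52e-08). TLR3, the endosomal sensor, went from 7.11 ± 0.295 to 3.51 ± 0.172 (log2 change -0.85, SE 0.0795, adjusted p = 7.7e-07), and the helicase DDX60L from 105 ± 1.36 to 41.7 ± 3.0 (log2 change -1.31, SE 0.0755, adjusted p = 3.68e-09).

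The enzymes that modify proteins in the antiviral state declined together. Of 8 genes for conjugating the ubiquitin-like protein ISG15, 6 were lower and 1 higher. Of all genes 14% were lower and 27.7% higher, the reference for each list of this paragraph. ISG15 itself fell little, from 776, 821 and 826 RPKM at 12 h to 552, 678 and 564 at 48 h (log2 change -0.44, SE 0.118, adjusted p = 0.00742). Its ligase-related gene HERC6 changed by -1.13 and the ligase TRIM25 by -0.78. Among 10 antiviral TRIM ligases 9 were lower and none higher, led by TRIM21, an intracellular antibody receptor, at -0.78 and including the most abundant, TRIM22, at -0.74. Among 6 PARP genes and DTX3L, which place ADP-ribose on proteins, 5 were lower and none higher, with PARP14 at 81.1 ± 3.23 and 35.2 ± 0.978 RPKM (log2 change -1.18, SE 0.0666, adjusted p = 2.78e-09). All 4 guanylate-binding proteins tested, GTPases that attack membranes around pathogens, were lower. GBP1 (ENSG00000117228) went from 34.2, 32.3 and 32.3 RPKM to 9.37, 8.55 and 10.2 without overlap (log2 change -1.71, SE 0.0715, adjusted p = 9.57e-11), against 2.07 ± 0.0902 untreated. Of 8 apolipoprotein L and APOBEC3 genes, 5 were lower and 1 higher. APOL1, which forms pores in trypanosomes, fell from 21.1 ± 1.82 to 7.6 ± 0.807 RPKM (log2 change -1.36, SE 0.116, adjusted p = 2.56e-07). APOBEC3C, the most abundant of these at 12 h, lost its call after scaling (0.16 before, 0.071 after).

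The receptor and JAK-STAT genes moved by less than 1 on the log2 scale. Of 8 receptor and JAK-STAT genes, 4 were lower and 1 higher at 48 h. STAT2 fell from 57.5 ± 2.62 to 41.4 ± 0.723 (log2 change -0.46, SE 0.0689, adjusted p = 6.71e-05), and JAK1 changed by -0.37. IFNAR2, the high-affinity receptor chain, rose from 7.29, 7.31 and 7.17 RPKM to 11.0, 10.5 and 12.1 (log2 change 0.56, SE 0.0894, adjusted p = 0.000127), beside an untreated level of 11.8 ± 1.82. IRF9, the partner of the STATs, was at 77.3 ± 6.62 and 70.8 ± 5.41 RPKM and was not called (adjusted p = 0.405); it was added after its values were seen. Of 6 interferon regulatory factors, 3 were lower and none higher, among them IRF7 and IRF1. IRF7, the amplifier of interferon production, stood at 25.1 ± 2.78 RPKM after 52.2 ± 3.01 at 12 h (log2 change -1.03, SE 0.114, adjusted p = 3.94e-06), and IRF1 fell from 22.4 ± 0.741 to 13.0 ± 0.925 (log2 change -0.74, SE 0.0667, adjusted p = 4.9e-07).

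Negative regulators had a larger share of lower calls than all genes. Of 12 tested, 5 (41.7%) were lower and 2 (16.7%) higher at 48 h (6 and 1 after scaling), with a median of -0.03. Of all genes 14% were lower and 27.7% higher, or 21.1% and 19.1% after scaling. USP18 (ENSG00000184979), the ISG15 protease that also shuts the receptor, was at 2.03, 1.82 and 1.75 RPKM untreated, 80.6, 78.8 and 84.1 at 12 h and 36.0, 35.7 and 36.9 at 48 h. It declined 2.24-fold without overlap (log2 change -1.14, SE 0.0473, adjusted p = 9.57e-11) and stayed well above untreated cells. TNFAIP3 and NFKBIA, inhibitors of NF-kB, changed by -0.98 and -0.48. SOCS3 was called at -0.45 (adjusted p = 0.0368) from levels of 1.71 ± 0.492 and 0.967 ± 0.144 RPKM, and lost the call in a fit on the 6 libraries alone and on leaving out the replicate 3 library of 12 h (-0.31) or any 48 h library (-0.48 to -0.39).

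Death and checkpoint genes induced at 12 h receded. Of 22 cell death genes, 11 were lower and 5 higher at 48 h. Of all genes 14% were lower and 27.7% higher, the reference for both lists of this paragraph. The share of cell death genes called higher thus did not exceed that of all genes. At 12 h 15 of the 22 had been called above untreated cells and at 48 h 7, beside 16% and 5.9% of all genes. MLKL, the executioner of necroptosis, was at 10.9, 11.9 and 10.7 RPKM untreated, 28.3, 26.4 and 26.2 at 12 h and 13.0, 10.4 and 13.1 at 48 h, near its untreated values (log2 change -1.09, SE 0.0781, adjusted p = 3.88e-08). CASP1, the inflammasome protease, fell from 84.9 ± 3.54 to 46.0 ± 1.36 (log2 change -0.87, SE 0.0653, adjusted p = 6.45e-08). BBC3 (PUMA), a p53 target that triggers apoptosis, rose from 1.74 ± 0.0473 to 3.95 ± 0.289 (log2 change 0.85, SE 0.133, adjusted p = 0.000102). Of 8 checkpoint ligands, 4 were lower and none higher, led by LGALS9 (galectin-9) at 80.5 ± 5.27 and 32.1 ± 3.97 RPKM (log2 change -1.30, SE 0.0884, adjusted p = 2.25e-08) and CD47, the signal against phagocytosis, at 68.9 ± 5.63 and 40.0 ± 1.55 (log2 change -0.77, SE 0.0674, adjusted p = 3.84e-07).

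The relatives of SP100 and the scaffold PML fell. The 3 family genes tested were all lower: SP110 went from 99.0, 96.7 and 92.5 RPKM to 57.0, 51.4 and 50.2 (log2 change -0.85, SE 0.0666, adjusted p = 1.05e-07), and SP140L from 16.6 ± 0.625 to 9.41 ± 1.03 (log2 change -0.76, SE 0.109, adjusted p = 5e-05), with SP100 as given above. PML, the scaffold of the nuclear bodies, was at 24.4, 24.8 and 25.7 RPKM untreated, 66.8, 79.2 and 72.7 at 12 h and 47.4, 52.5 and 51.0 at 48 h, between its other levels and without overlap (log2 change -0.52, SE 0.0623, adjusted p = 8.27e-06). Of 16 genes for nuclear bodies and the HIRA histone chaperone, 4 were lower and 3 higher, beside 14% and 27.7% of all genes. DAXX, the histone chaperone of the bodies, changed by -0.33, while SUMO3 and the HIRA partner UBN1 were higher by 0.35 and 0.34. HIRA itself, chosen after its values were seen, fell from 20.8 ± 0.953 to 16.9 ± 0.679 (log2 change -0.28, SE 0.0755, adjusted p = 0.00764). H3-3B, which encodes the histone that HIRA deposits and was the most abundant of the list, changed by -0.21. Of 15 genes for H3K9 methylation and HP1, 3 were higher and 2 lower (1 and 4 after scaling), near the shares of all genes, with ATF7IP at 0.41 and the corepressor TRIM28 at -0.33. Among 386 ZNF zinc finger genes, 61 (15.8%) were higher and 16 (4.1%) lower, against 46 and 33 after scaling. Under either scaling the shares called higher and called lower were both below those of all genes. The median change was 0.094, beside 0.079 for all genes.

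**Figure D4:**
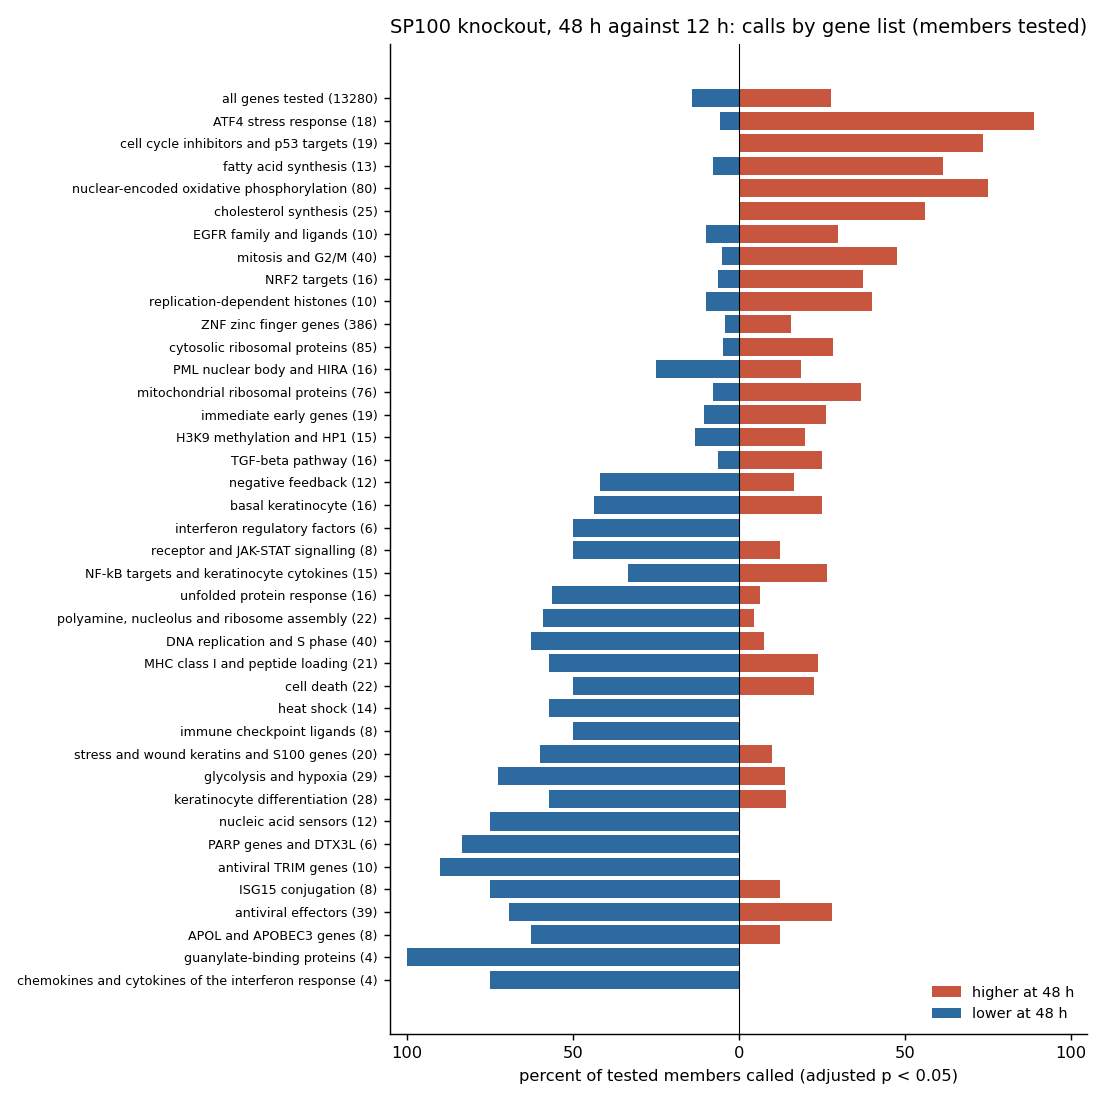
Percent of tested members called higher (red, right) or lower (blue, left) at 48 h than at 12 h in KO cells, for each gene list with at least 4 tested members, ordered by the median change, with all 13280 genes at the top (27.7% higher, 14% lower). Amino acid stress genes stand at the upper end and guanylate-binding proteins and chemokines at the lower end.

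Outside the interferon response, the list with the largest share of higher calls was that of amino acid supply, with targets of the stress factor ATF4. Of 18 tested, 16 (88.9%) were higher and 1 lower at 48 h, 14 and 1 after scaling, with 5 at 2-fold. Against untreated cells, 14 of the 18 had been lower at 12 h, beside 32.8% of all genes, and at 48 h 7 were higher and none lower, beside 5.9% and 7.42%. ASNS (ENSG00000070669), asparagine synthetase, was at 49.7, 48.6 and 49.0 RPKM untreated, 18.9, 19.4 and 19.5 at 12 h and 64.7, 64.9 and 65.0 at 48 h. It dipped at 12 h and ended above the untreated libraries, with replicates within a few percent of each other (log2 change 1.70, SE 0.0582, adjusted p = 1.26e-11). CHAC1, which breaks down glutathione, went from 1.12, 1.32 and 1.15 RPKM to 6.54, 6.55 and 6.59, a 5.48-fold rise (log2 change 1.78, SE 0.132, adjusted p = 5.37e-08). SLC7A11, the cystine importer, went from 3.07 ± 0.0208 to 10.8 ± 0.578 (log2 change 1.53, SE 0.0687, adjusted p = 2.08e-10). PSAT1 and PHGDH of serine synthesis rose to 87.7 ± 4.37 and 79.0 ± 4.7 RPKM from 35.8 ± 1.75 and 34.8 ± 1.49 (log2 changes 1.27 and 1.16); PHGDH was chosen after its values were seen. CTH, which makes cysteine, and NUPR1, a stress-induced chromatin protein, rose alike, CTH from 1.75 ± 0.394 to 7.39 ± 0.718 (log2 change 1.61, SE 0.126, adjusted p = 1.05e-07) and NUPR1 from 4.65 ± 0.301 to 18.9 ± 0.248 (log2 change 1.82, SE 0.167, adjusted p = 6.31e-07). DDIT4, the most abundant of the 18 at 12 h, was called at 0.13 and lost the call after scaling, in the fit without a variance trend and on leaving out either the replicate 1 or 3 library of 12 h or the replicate 2 library of 48 h (0.043 to 0.13).

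Promoter windows of ASNS (chr7:97872399-97872658, minus strand) and CHAC1 (chr15:40953221-40953480, plus strand) are shown because both hold TGATGNAA, the core of the amino acid response element, in capitals on either strand; the motif was chosen after their values were seen.
ASNS: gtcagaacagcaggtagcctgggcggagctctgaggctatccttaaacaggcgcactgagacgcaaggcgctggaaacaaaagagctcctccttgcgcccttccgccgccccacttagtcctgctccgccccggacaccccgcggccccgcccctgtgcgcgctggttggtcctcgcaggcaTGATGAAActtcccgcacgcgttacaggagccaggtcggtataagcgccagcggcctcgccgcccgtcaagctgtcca
CHAC1: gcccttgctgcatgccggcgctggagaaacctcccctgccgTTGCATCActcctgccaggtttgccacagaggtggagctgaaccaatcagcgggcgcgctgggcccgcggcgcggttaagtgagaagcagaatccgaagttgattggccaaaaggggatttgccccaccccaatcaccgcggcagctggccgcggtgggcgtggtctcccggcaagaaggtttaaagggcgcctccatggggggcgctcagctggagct
The match begins 68 bases upstream of the start in ASNS and 209 in CHAC1. It stood in 3 of the 13 ATF4 list genes that rose and have a window (23.1%), and in 1.7% of all genes tested; the other 10 hold no such letters in this window.

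**Figure D5:**
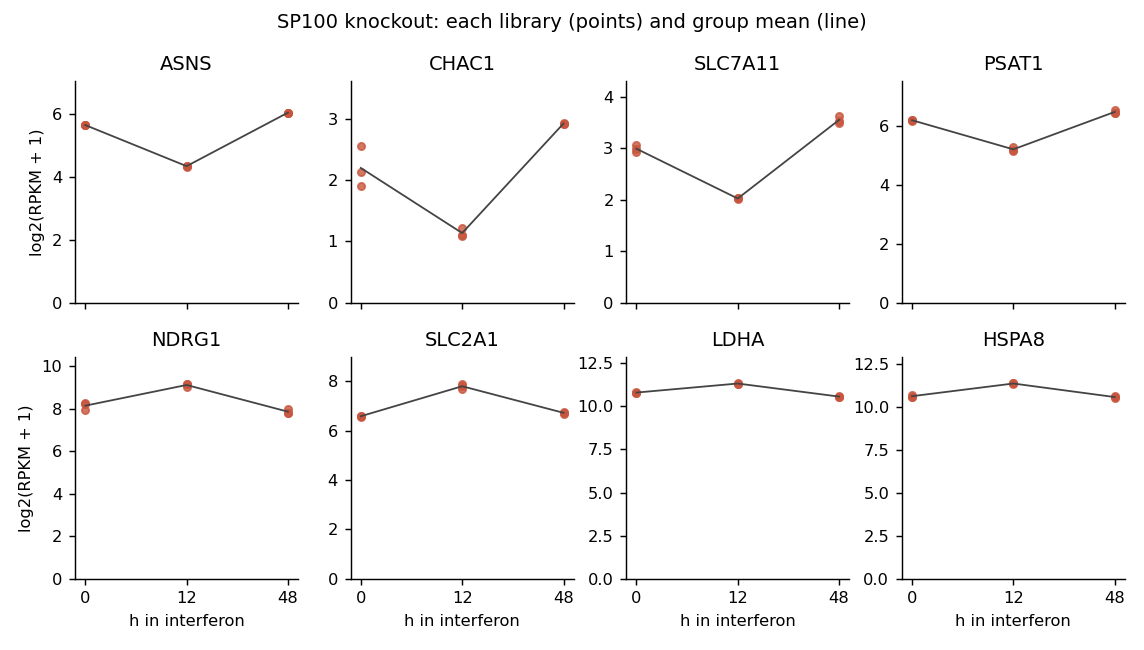
Level of 4 amino acid stress genes (upper row) and 4 glycolysis or folding genes (lower row; y axes, log2(RPKM + 1)) in each KO library at 0, 12 and 48 h in interferon (x axis, evenly spaced), points for libraries and lines through group means. The upper genes had their lowest and the lower genes their highest values at 12 h.

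Glycolysis and hypoxia genes ran opposite to the amino acid genes. Of 29 tested, 21 were lower and 4 higher at 48 h (21 and 2 after scaling), beside 14% and 27.7% of all genes. The median was -0.34, and 21 had been called above untreated cells at 12 h, beside 16% of all genes. NDRG1, a hypoxia-responsive gene, was at 308, 297 and 247 RPKM untreated, 525, 566 and 581 at 12 h and 254, 224 and 221 at 48 h, a 2.39-fold decline without overlap (log2 change -1.26, SE 0.0761, adjusted p = 6.29e-09). SLC2A1, the GLUT1 glucose transporter, fell from 223 ± 14.8 to 105 ± 3.3 RPKM (log2 change -1.08, SE 0.0485, adjusted p = 2.08e-10), near its untreated 95.1 ± 1.26. EGLN3, a prolyl hydroxylase that marks HIF for decay, fell from 7.54 ± 0.375 to 2.15 ± 0.138 (log2 change -1.44, SE 0.129, adjusted p = 4.95e-07), and BNIP3, a mitophagy receptor, from 111 ± 2.74 to 53.4 ± 0.909 (log2 change -1.04, SE 0.032, adjusted p = 3.08e-12). GAPDH, the most abundant of the list, fell from 3414 ± 111 to 2807 ± 156 (log2 change -0.28, SE 0.0389, adjusted p = 3.23e-05). The higher members included VEGFA (41.5 ± 2.49 and 60.6 ± 2.15 RPKM) and the muscle phosphofructokinase PFKM (37.5 ± 2.33 and 57.8 ± 3.03), chosen after their values were seen. ANGPTL4, a secreted inhibitor of lipoprotein lipase outside the list, peaked at 12 h too, with 13.8, 15.5 and 15.8 RPKM untreated, 60.6, 60.6 and 59.0 at 12 h and 13.8, 16.0 and 12.9 at 48 h (log2 change -2.01, SE 0.11, adjusted p = 1.98e-09).

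Respiration and lipid synthesis moved up, mostly by small steps. Of 80 nuclear-encoded subunits of oxidative phosphorylation, 60 (75.0%) were higher and none lower at 48 h, and 39 higher and 2 lower after scaling. The median was 0.23 (0.14 scaled). In unscaled values, 72 of the 80 had been called below untreated cells at 12 h against 16 at 48 h. The shares of all genes were 27.7% higher at 48 h than at 12 h, 32.8% below untreated cells at 12 h and 7.42% at 48 h. NDUFS7 and NDUFS8, iron-sulfur subunits of complex I, changed by 0.61 and 0.53, NDUFB5 by 0.48 and SDHD of complex II by 0.44. Cholesterol synthesis genes had 14 of 25 higher and none lower (11 and 1 scaled). Of these 25 genes, 16 had been called below untreated cells at 12 h, against 1 at 48 h. For the 13 fatty acid genes below, these counts were 10 and 2. INSIG1, the sterol-gated anchor of SREBP, rose from 4.02 ± 0.482 to 7.91 ± 0.381 (log2 change 0.83, SE 0.102, adjusted p = 1.08e-05), and FDFT1 (squalene synthase) by 0.70. SQLE, the most abundant of the list at 12 h, was not called (0.01). Fatty acid synthesis had 8 of 13 higher and 1 lower (5 and 2 scaled), with ACSS2 from 8.02 ± 0.857 to 18.7 ± 1.18 (log2 change 1.13, SE 0.0843, adjusted p = 6.09e-08), FASN at 0.87 and SCD at 0.57.

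Ribosomal protein genes had no direction that held under both scalings. Cytosolic ones had 24 of 85 higher and 4 lower, against 7 and 14 after scaling, and the median went from 0.07 to -0.03. Mitochondrial ones had 28 of 76 higher and 6 lower, against 14 and 11, and the median went from 0.06 to -0.03. Below untreated cells at 12 h were 78 of the 85 cytosolic genes and 27 of the 76 mitochondrial ones, the latter close to the 32.8% of all genes. Genes for polyamines, the nucleolus and ribosome assembly fell in 13 of 22 (18 scaled), with 1 higher, among them ODC1, the first enzyme of polyamine synthesis, at -0.41 and the abundant nucleolar NPM1 at -0.30. Targets of the oxidant factor NRF2 had 6 of 16 higher and 1 lower (4 and 3 scaled), a list led by SLC7A11, which also stands among the ATF4 targets; the ferritin chain FTH1 changed by 0.34 and GCLM by -0.37.

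Chaperones came down from a 12 h peak. Of 14 heat shock genes, 8 were lower and none higher (10 scaled). Of 16 genes of the unfolded protein response, 9 were lower and 1 higher (12 and 1 scaled). The shares of all genes were 14% lower and 27.7% higher. HSPA8, the constitutive HSP70 and the most abundant of the former, was at 1519, 1630.4 and 1517 RPKM untreated, 2614, 2535 and 2620.1 at 12 h and 1537, 1524 and 1443 at 48 h, with the 48 h libraries near or below the untreated ones (log2 change -0.79, SE 0.0518, adjusted p = 1.68e-08). Inducible HSPA1A fell from 168 ± 7.44 to 91.6 ± 6.95 (log2 change -0.87, SE 0.0721, adjusted p = 1.96e-07), with reads that its near-identical copy HSPA1B could share, and its cochaperone DNAJA1 from 449 ± 17.4 to 257 ± 5.41 (log2 change -0.80, SE 0.0539, adjusted p = 2.1e-08). HSPA5 (BiP), the chaperone of the endoplasmic reticulum, fell from 449 ± 16.6 to 274 ± 7.33 (log2 change -0.71, SE 0.0453, adjusted p = 1.23e-08), near its untreated level of 269.6 ± 8.46.

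In the cell cycle, replication genes fell, inhibitors rose, and mitotic genes were mixed. Of 40 genes of DNA replication, 25 were lower and 3 higher (29 and 1 scaled), after 22 had been above and 3 below untreated cells at 12 h. The shares of all genes were 14% lower and 27.7% higher, and 16% above and 32.8% below untreated cells at 12 h. ORC1, which marks origins, was at 12.4, 12.8 and 12.4 RPKM untreated, 20.2, 20.2 and 20.9 at 12 h and 12.5, 12.6 and 11.8 at 48 h, close to the untreated libraries (log2 change -0.69, SE 0.0408, adjusted p = 4.83e-09). The checkpoint adaptor CLSPN, the cyclin CCNE2, the loader CDC6 and the helicase subunit MCM4, the most abundant of the list, changed by -0.60, -0.59, -0.51 and -0.27. Of 40 mitotic genes, 19 were higher and 2 lower, but 13 and 8 after scaling, with a median of 0.14 that became 0.05. CDC25B and CDC25C, phosphatases that start mitosis, rose by 0.58 and 0.41 and the securin PTTG1 by 0.43, while CDC20, which activates the anaphase ligase, fell by 0.45 (log2 change -0.45, SE 0.0662, adjusted p = 5.71e-05). Of 19 p53 targets and cell cycle inhibitors, 14 were higher and none lower (13 and none scaled), after 13 had been below untreated cells at 12 h. GDF15, a stress cytokine, rose from 2.53, 2.68 and 2.65 RPKM to 9.19, 11.3 and 11.9 (log2 change 1.70, SE 0.178, adjusted p = 2.45e-06), above or among its untreated values (7.58, 5.51 and 9.87). ZMAT3, an RNA-binding p53 target, rose from 3.8 ± 0.302 to 8.86 ± 0.552 (log2 change 1.04, SE 0.0733, adjusted p = 3.58e-08), MDM2, the p53 ligase, from 81.3 ± 4.49 to 148 ± 14.6 (log2 change 0.85, SE 0.0912, adjusted p = 2.81e-06) and CDKN1A (p21), the most abundant of the list at 12 h, from 109 ± 2.6 to 158 ± 4.63 (log2 change 0.54, SE 0.0452, adjusted p = 2.24e-07). BTG2 changed by 0.74. Of 10 replication-dependent histone genes tested, 4 were higher and 1 lower, with H2AC25 at 1.23 ± 0.353 and 3.9 ± 0.55 RPKM; most such transcripts lack a poly(A) tail, and the libraries were made from poly(A) RNA.

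Differentiation and wound genes of the epidermis fell. Of 28 genes of the suprabasal and cornified layers, 16 were lower and 4 higher (17 and 2 scaled), beside 14% and 27.7% of all genes. At 12 h 15 had been above untreated cells, beside 16% of all genes. SPRR2D, a cornified envelope precursor, was at 11.2, 8.28 and 7.37 RPKM untreated, 38.2, 48.8 and 54.4 at 12 h and 15.2, 16.1 and 14.1 at 48 h, low again in all libraries (log2 change -1.57, SE 0.132, adjusted p = 2.36e-07). SPRR2A changed by -1.13, the protease KLK10 by -0.92 and the repressor OVOL1 by -0.77. Of 20 stress keratins and S100 genes, 12 were lower and 2 higher (14 and 1 scaled). KRT6A, the wound keratin, was at 6297, 6891 and 6808 RPKM at 12 h and 4738, 4785 and 4353 at 48 h, abundant throughout and without overlap (log2 change -0.53, SE 0.0459, adjusted p = 3.4e-07). Its relatives KRT6B and KRT6C fell by larger steps (-1.13 and -1.41), and the alarmin S100A8 went from 35.8 ± 4.69 to 22.1 ± 1.54 (log2 change -0.66, SE 0.0981, adjusted p = 6.36e-05), below its untreated 46.0 ± 0.982. The SPRR2 and KRT6 genes are near-identical copies whose reads could be split.

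Basal adhesion genes had a larger share of lower calls than all genes. Of 16 tested, 7 (43.8%) were lower and 4 (25.0%) higher (7 and 2 scaled). Of all genes 14% were lower and 27.7% higher, so the share of higher calls was near that of all genes. LAMB3, a chain of laminin-332, fell from 177 ± 8.62 to 121 ± 6.2 RPKM (log2 change -0.55, SE 0.0731, adjusted p = 2.29e-05). Its partner chain LAMA3 changed by -0.49 and the integrin ITGA6 by -0.40. COL7A1, the anchoring fibril collagen, rose from 73.1, 91.0 and 64.5 RPKM to 98.7, 109 and 96.0 (log2 change 0.42, SE 0.113, adjusted p = 0.00734). KRT5, the basal keratin, rose from 6911 ± 386 to 8314 ± 229 RPKM (log2 change 0.27, SE 0.0363, adjusted p = 2.91e-05).

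The EGF receptor, TGF-beta and immediate early lists stood near the shares of all genes (27.7% higher, 14% lower), and single members are given as values. Of 10 genes of the EGF receptor family and its ligands, 3 were higher and 1 lower. AREG (amphiregulin), the keratinocytes' own ligand, was at 619, 599 and 639.8 RPKM untreated, 349, 309 and 331 at 12 h and 613, 609 and 639 at 48 h, so that a dip at 12 h was made good (log2 change 0.91, SE 0.0474, adjusted p = 1.23e-09). EGFR rose by 0.39, NRG1 changed by -0.41, and ERBB2 was called at 0.19 but not after scaling (0.11) nor without the replicate 1 or 3 library of 12 h or the replicate 3 library of 48 h (0.15 to 0.19). Inflammatory signals were divided. Of 15, 4 (26.7%) were higher and 5 (33.3%) lower, the latter above the share of all genes. IL1B rose from 9.83, 9.82 and 10.5 RPKM to 21.9, 23.5 and 21.1 (log2 change 1.07, SE 0.067, adjusted p = 1.04e-08) while its antagonist IL1RN fell from 23.0 ± 1.54 to 11.2 ± 1.02 (log2 change -0.98, SE 0.0838, adjusted p = 2.74e-07). The neutrophil chemokines CXCL1 and CXCL8 changed by -1.13 and -0.75, and IL1A by 0.66. Of 16 TGF-beta pathway genes, 4 were higher and 1 lower, with the activin chain INHBA at 0.62. Of 19 immediate early genes, 5 were higher and 2 lower (3 and 5 scaled), with EGR1 at 0.55, JUN at -0.32 and JUND at 0.59; JUND lost its call without the replicate 3 library of 48 h (0.39), and FOS, the most abundant, was not called (0.07).

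Among genes that met the demands for naming, the largest rises covered epidermal and stress genes. Of the 108 genes higher at 2-fold, 75 also met the demands of a symbol, a mean of at least 5 RPKM at 48 h, no overlap and the same call after scaling. The highest change of all genes tested, 3.24, belonged to a gene that did not meet them. The 12 largest rises of the 75 included PADI3, NUPR1, ARRDC4, CHAC1, NNMT, ASNS, GDF15, CTH, ZP3, NGFR and TSC22D3. In each of these the 12 h mean lay below the untreated mean. PADI3, an arginine deiminase of hair follicle and epidermis, was at 32.9, 28.2 and 30.7 RPKM untreated, 3.72, 4.6 and 3.79 at 12 h and 17.5, 16.2 and 17.5 at 48 h (log2 change 1.85, SE 0.0776, adjusted p = 9.57e-11), still below its untreated level. ARRDC4, an arrestin-like gene that limits glucose uptake, went from 7.39 ± 0.389 to 28.3 ± 2.82 (log2 change 1.80, SE 0.107, adjusted p = 4.83e-09), with 26.1 ± 3.26 untreated. NNMT, which methylates nicotinamide, went from 2.5 ± 0.615 to 10.7 ± 2.06 (log2 change 1.74, SE 0.162, adjusted p = 7e-07), and ZP3, named for the egg coat, from 1.06 ± 0.416 to 5.24 ± 0.711 (log2 change 1.61, SE 0.176, adjusted p = 3.41e-06). NGFR, a marker of basal keratinocytes, went from 1.08 ± 0.0954 to 5.35 ± 0.754 (log2 change 1.60, SE 0.128, adjusted p = 1.32e-07), and TSC22D3 (GILZ), a glucocorticoid target, from 14.0 ± 0.219 to 42.8 ± 7.42 (log2 change 1.54, SE 0.158, adjusted p = 1.99e-06).

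The largest falls included several genes outside the interferon lists. Of the 83 genes lower at 2-fold, 61 met the same demands, and the 12 largest were CXCL10, CXCL11, MMP13, ISG20, ANGPTL4, TAGLN, RSAD2, SECTM1, CYB5R2, CEACAM1, TUBB3 and GBP1. MMP13, a collagenase, was at 0.06, 0.05 and 0.13 RPKM untreated, 18.8, 15.7 and 17.1 at 12 h and 2.42, 2.81 and 2.39 at 48 h, a 6.76-fold fall that left it above untreated cells (log2 change -2.36, SE 0.0971, adjusted p = 9.57e-11). TAGLN, an actin-binding protein, went from 30.8, 31.3 and 39.1 RPKM to 7.97, 8.54 and 7.58, near its untreated 8.95 ± 0.984 (log2 change -1.94, SE 0.0988, adjusted p = 9.98e-10). TUBB3, a beta-tubulin best known from neurons, went from 42.8 ± 3.16 to 12.0 ± 0.963 (log2 change -1.75, SE 0.115, adjusted p = 1.63e-08). SECTM1, an interferon-responsive secreted protein, went from 12.7 ± 1.72 to 2.73 ± 0.854 (log2 change -1.89, SE 0.164, adjusted p = 3.26e-07), CEACAM1, an adhesion molecule, from 13.0 ± 0.686 to 3.17 ± 0.956 (log2 change -1.78, SE 0.152, adjusted p = 2.83e-07), and CYB5R2, a cytochrome b5 reductase, from 7.14 ± 0.902 to 1.33 ± 0.0755 (log2 change -1.80, SE 0.144, adjusted p = 1.32e-07).

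Markers of other cells were low or missing. All 12 keratinocyte markers were in the table, summing to 22100 to 24944 RPKM at 12 h and 21415 to 22954 at 48 h, and 8 of them were lower at 48 h. Of 18 fibroblast markers, 8 were in the table, summing to 268 to 283 RPKM at 12 h and 215 to 225 at 48 h, mostly VIM; COL1A2, DCN, LUM and PDGFRA were not among the genes of the table. Of the 5 fibroblast markers tested, 1 was higher and 2 lower: TAGLN and VIM fell and ACTA2 rose (log2 change 0.62, SE 0.0715, adjusted p = 5.77e-06). The part of feeder or other fibroblast RNA in these changes was not tested. Of 14 leukocyte markers 4 were in the table, summing to 45.4 to 51.8 RPKM at 12 h and 36.2 to 41.0 at 48 h, mostly CD68, and of 8 melanocyte and 6 endothelial markers 2 and 0 were. In bulk RNA, fewer cells of a type and less RNA per cell cannot be told apart.

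WT cells went through a similar change, measured in libraries that the KO comparison does not share. In WT, 4772 genes were called (35.9%), 3267 higher (24.6%) and 1505 lower (11.3%), with 85 (0.64%) and 63 (0.474%) at 2-fold. Across the 13280 genes, which are not independent replicates, the changes of KO and WT correlated with r = 0.759 (Pearson) and rho = 0.772 (Spearman), given as a description. Of the genes higher at 2-fold, 53 were so in both genotypes (49.1% of the KO and 62.4% of the WT genes), and of those lower, 53 (63.9% and 84.1%). In WT, CXCL10 was at 139, 151 and 132 RPKM at 12 h and 1.79, 3.05 and 2.01 at 48 h (log2 change -5.45), IFI27 at 1155, 1167 and 1249 and 2604, 2812 and 2923 (1.22), and ASNS at 14.8, 14.7 and 16.0 and 40.8, 48.0 and 44.1 (1.49).

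No gene had a change called different between the genotypes. The interaction, KO change minus WT change, gave 0 called genes (0%) in the limma fit of 13280, with 904 at an unadjusted p under 0.05. The smallest adjusted p, 0.107, was shared by GBP1 (-0.62, SE 0.101, adjusted p = 0.107), SAMD9 (-0.42, SE 0.0709, adjusted p = 0.107) and ABCA2 (0.99, SE 0.163, adjusted p = 0.107), a lipid transporter of lysosomes. GBP1 was at 32.1, 35.3 and 32.5 RPKM in WT at 12 h and 14.2, 15.8 and 15.1 at 48 h, a change of -1.10 against -1.71 in KO. SAMD9, a restriction factor of poxviruses, changed by -0.71 in WT and -1.12 in KO, from 64.5 ± 2.85 to 29.1 ± 1.28 RPKM. RSAD2 differed by -0.52 (adjusted p = 0.433), and was the single gene called when only the 12 libraries of the interaction were fitted (adjusted p = 0.0364). A single other gene, CLMP, an adhesion molecule, was called when variances were not given a trend (-0.62, adjusted p = 0.0459, against 0.433 with the trend). These values do not show that the genotypes change alike, and nothing described above is shown to be particular to the knockout.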

How the data were processed

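RNA-seq of 18 NIKS libraries in 6 groups of 3 was analysed. The authors deposited 1 table of RPKM values for 16472 Ensembl gene IDs; the submitters' processing notes name cutadapt, STAR 2.6.1, RSEM 1.3.0, limma 3.50.3 and the build hg19, without their roles. The annotation, gene filter and library total are not given in the sources used here. A table of gene IDs named 15666 genes.

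Values were taken as log2(RPKM + 1), since RPKM are not counts. Genes that reached an RPKM of 1 in 3 or more libraries entered a model of the 6 group means in limma 3.58.1 under R 4.3.3, with trended moderated variances, and p-values were adjusted by Benjamini-Hochberg per comparison at a threshold of 0.05. In simulated data of this comparison on 13280 genes, 100 genes were changed by 0.5 and 100 by 1 (log2). Of these, 62% and 91% were recovered, and 4.97% of calls were false. Noise was normal and independent between genes, no shift common to all genes was put in, and far fewer genes changed than were called in the data. The figures are therefore no error rate for these data. Relative depth was fitted to 1120 genes with low values, of which 99.3% of library pairs lay within 3%; no counting interval was made.

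The members and gene lists were chosen with earlier results of these data known. Named genes were the 12 largest rises and falls under the stated demands, SP100, and per list up to 4 called members with the largest change and the member with the highest mean at 12 h in KO; others are marked, and a few genes that the rule names are not reported here. Lists were described by counts and medians, without a set test. Aliases counted as separate genes and pseudogenes were removed from the other lists after seeing which IDs the table held. The list of 386 ZNF genes tested still held pseudogenes, such as ZNF137P and ZNF204P. Promoters and coordinates are from RefSeq in GRCh38.p14, apart from the hg19 values.

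Libraries are labelled biological replicates; nothing says that they came from separate cultures, so p-values measure the spread between these libraries.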

Additional observations from a re-analysis of the deposited data

How the results depend on the processing

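Results were recomputed with another pseudocount (0.1), without the filter, with a stricter one (mean RPKM of 5 or more), after median-of-ratios scaling, on the compared libraries only, with untrended variances, with a replicate block, and without each library in turn. Of 198 genes followed under the naming rule, 191 were called, and 15 of these lost the call under at least 1 alternative; besides those given above these included PDCD1LG2, NECTIN2, GCLC, ATP5MF, ZNF706, CBX1, H2AC20, H1-2 and CD14. Of 17 further genes, chosen after their values were seen, 16 were called, and IFI44L lost its call with a pseudocount of 0.1 (0.47). None of these genes reversed under the alternatives run. With a pseudocount of 0.1, which lets low genes move further, 349 genes were higher and 147 lower at 2-fold in KO. With a mean RPKM of at least 5, which tests fewer genes, 53 were lower at 2-fold. Median-of-ratios scaling gave 2803 lower genes. The interaction had 1 called gene in the fit on its own libraries and 1 without a variance trend; the cause was not tested. On leaving out single libraries, higher genes numbered 3117 to 3317 and lower genes 1558 to 1713, those at 2-fold 108 to 134 and 82 to 92, WT calls 3791 to 4574 and interaction calls 0.

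Replicate numbers did not pair the libraries: same-numbered KO libraries at 12 and 48 h had correlations of their deviations of -0.0972 to 0.0199, and 0 of 3 correlated best with its own number. With the number as a replicate block, 3575 genes were higher and 1788 lower in KO (108 and 83 at 2-fold), 4581 were called in WT and 0 in the interaction.

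The unknown read totals leave no floor for low genes, small changes depend on the scaling, and with 1 line per genotype and no untreated library at 12 or 48 h, neither genotype nor interferon is separated from line or culture time.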
